A study of Mus musculus with 8 samples.

Results

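The genes described here are the matrix metalloproteases (MMPs), the ADAMTS proteases with the ADAMTS-like proteins, and the tissue inhibitors of metalloproteases (TIMPs). They were chosen by symbol, as every mouse gene whose name starts with Mmp and a digit or with Adamts, or is one of Timp1 to Timp4, and that had a probe set assigned to it alone. This rule found 49 of the 22180 genes on the array: 22 MMP genes, 18 ADAMTS genes, 5 ADAMTS-like genes and 4 TIMP genes. RNA was measured in C2C12 cells, a mouse myoblast line, on Affymetrix Mouse Gene ST 2.1 arrays. In all samples, myoblasts had been transduced with an shRNA retrovirus and differentiated into myotubes before 12 h at the stated glucose concentration. The 4 groups of 2 biological replicates were Baf60c knockdown (SiBc) myotubes at 10 mM glucose and at 1 mM glucose, and scrambled-shRNA control (Scrb) myotubes at 10 mM and at 1 mM glucose. Baf60c is the protein of the gene Smarcd3, a subunit of BAF chromatin remodelling complexes. All cells came from 1 cell line, so differences between animals or donors were not sampled.

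MMPs are zinc-dependent endopeptidases that cut collagens, other matrix proteins, growth factors and receptors outside the cell. They are made as inactive precursors, and most are secreted, while the membrane-type enzymes stay on the cell surface. ADAMTS proteases are secreted enzymes with thrombospondin repeats, among them the enzymes that cut aggrecan and versican, process procollagen and act on fibrillin microfibrils. The ADAMTS-like proteins share these repeats but lack the protease domain. TIMPs bind and block the active site of MMPs, and Timp3 also blocks ADAMTS enzymes. In muscle, this system remodels the matrix around myoblasts and fibres during fusion, growth and repair. Arrays measure transcripts, and most of these enzymes are also controlled by precursor cleavage and inhibition, which RNA does not show.

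The promoters of 5 genes are printed here because these genes moved in the same direction with glucose in both cell types. The transcripts of Adamts12, Mmp14 and Adamts17 rose at 10 mM glucose and those of Mmp11 and Mmp28 fell. The promoter table held 6 genes of this kind. The sixth, Adamtsl3, is not printed because too few bases of its window lie before the annotated gene. Each sequence is the strand of the gene, 5′ to 3′, from that table, made from RefSeq for build GRCm38.p6. It holds up to 250 bases before the start site given in that table. The Adamts17 stretch was cut to 214 bases, because the annotated gene begins before that start site. Capitals mark matches to CANNTG, the E-box form that muscle basic helix-loop-helix factors such as MyoD bind.
Adamts12 (chr15:11064523-11064772, plus strand): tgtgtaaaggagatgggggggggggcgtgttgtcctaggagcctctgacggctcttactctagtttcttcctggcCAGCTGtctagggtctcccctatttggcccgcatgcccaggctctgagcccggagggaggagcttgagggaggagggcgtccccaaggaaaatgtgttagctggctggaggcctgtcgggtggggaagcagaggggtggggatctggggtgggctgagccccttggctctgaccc
Mmp14 (chr14:54431348-54431597, plus strand): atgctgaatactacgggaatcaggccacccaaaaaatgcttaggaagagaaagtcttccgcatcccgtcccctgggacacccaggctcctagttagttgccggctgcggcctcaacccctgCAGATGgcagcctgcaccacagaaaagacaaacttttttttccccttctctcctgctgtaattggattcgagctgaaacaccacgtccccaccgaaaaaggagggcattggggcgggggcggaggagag
Adamts17 (chr7:66839485-66839698, plus strand): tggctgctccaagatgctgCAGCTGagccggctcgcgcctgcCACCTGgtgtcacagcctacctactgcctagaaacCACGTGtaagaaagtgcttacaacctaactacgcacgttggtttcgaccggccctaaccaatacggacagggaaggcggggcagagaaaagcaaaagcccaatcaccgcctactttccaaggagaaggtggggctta
Mmp11 (chr10:75932503-75932752, minus strand): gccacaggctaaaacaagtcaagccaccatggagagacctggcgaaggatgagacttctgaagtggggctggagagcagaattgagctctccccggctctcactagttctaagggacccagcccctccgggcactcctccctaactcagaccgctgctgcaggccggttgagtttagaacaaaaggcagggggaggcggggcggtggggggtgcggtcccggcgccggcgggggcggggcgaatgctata
Mmp28 (chr11:83463041-83463290, minus strand): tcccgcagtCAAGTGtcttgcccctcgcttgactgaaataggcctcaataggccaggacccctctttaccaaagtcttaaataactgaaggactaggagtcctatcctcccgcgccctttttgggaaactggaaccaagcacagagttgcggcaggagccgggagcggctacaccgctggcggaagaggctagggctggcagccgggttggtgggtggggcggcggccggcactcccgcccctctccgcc
The windows of all genes in the table were also searched for CACGTG, the E-box form bound by the glucose-responsive factor ChREBP and its relatives, and for TGANTCA, the AP-1 site. Each of these motifs reads the same on both strands, and CACGTG is itself 1 form of CANNTG. Positions are counted from the start site of the promoter table, which for Adamts17 lies beyond the end of the printed stretch. Among the 5 genes, Adamts17 alone held CACGTG, at 173 bases before that start site. TGANTCA occurred in none of the 5 windows and Mmp11 held none of the 3 motifs. The window of Adamtsl3 held CANNTG at 101 and 81 bases before its start and neither of the others. The table held promoters of 34 of the 49 genes. CANNTG occurred in 24 of these 34 genes, or 70.6%, and in 75.0% of all 27025 genes of the table. CACGTG occurred in 2 of the 34, Adamts17 and Mmp7, and in 8.09% of all genes. TGANTCA occurred in 8 of the 34, and all of these 8 lie in the run of MMP genes on chromosome 9 described next. A match is a stretch of letters, and binding was not measured here.

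Of the 49 genes, 25 lay above a bound for dim signal and 24 below it. A gene was called dim when its mean over the 8 arrays was below 3 on the log2 scale of the deposited values. The dim genes made up 48.98% of the family, against 49.2% of all genes on the array. By subfamily, 16 of the 22 MMP genes were dim, against 7 of 18 ADAMTS genes, 0 of 5 ADAMTS-like genes and 1 of 4 TIMP genes. The brightness of a probe set also depends on its probes, so the order of genes within a subfamily is not an order of transcript amounts. The 10 MMP genes that lie in 1 run on chromosome 9 (Mmp13, Mmp12, Mmp1b, Mmp3, Mmp1a, Mmp10, Mmp8, Mmp27, Mmp20 and Mmp7) were all dim, with means between 1.11 and 2.46. This run holds collagenases, stromelysins, matrilysin and the macrophage elastase Mmp12. Of the 12 MMP genes elsewhere in the genome, 6 were not dim: Mmp2, Mmp11, Mmp14, Mmp16, Mmp19 and Mmp28. The AP-1 letters TGANTCA occurred in the promoters of 8 of the 10 genes of the run, or 80.0%, against 0 of the 24 other family genes in the table and 8.97% of all genes in it. In those 8 genes the match began between 35 and 95 bases before the start site of the promoter table. The run and its promoter letters are a description of the genome, set beside signals whose means over the 8 arrays were dim; the knockdown group at 1 mM had a mean of 3.14 for Mmp13, above the bound.

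**Figure D1:**
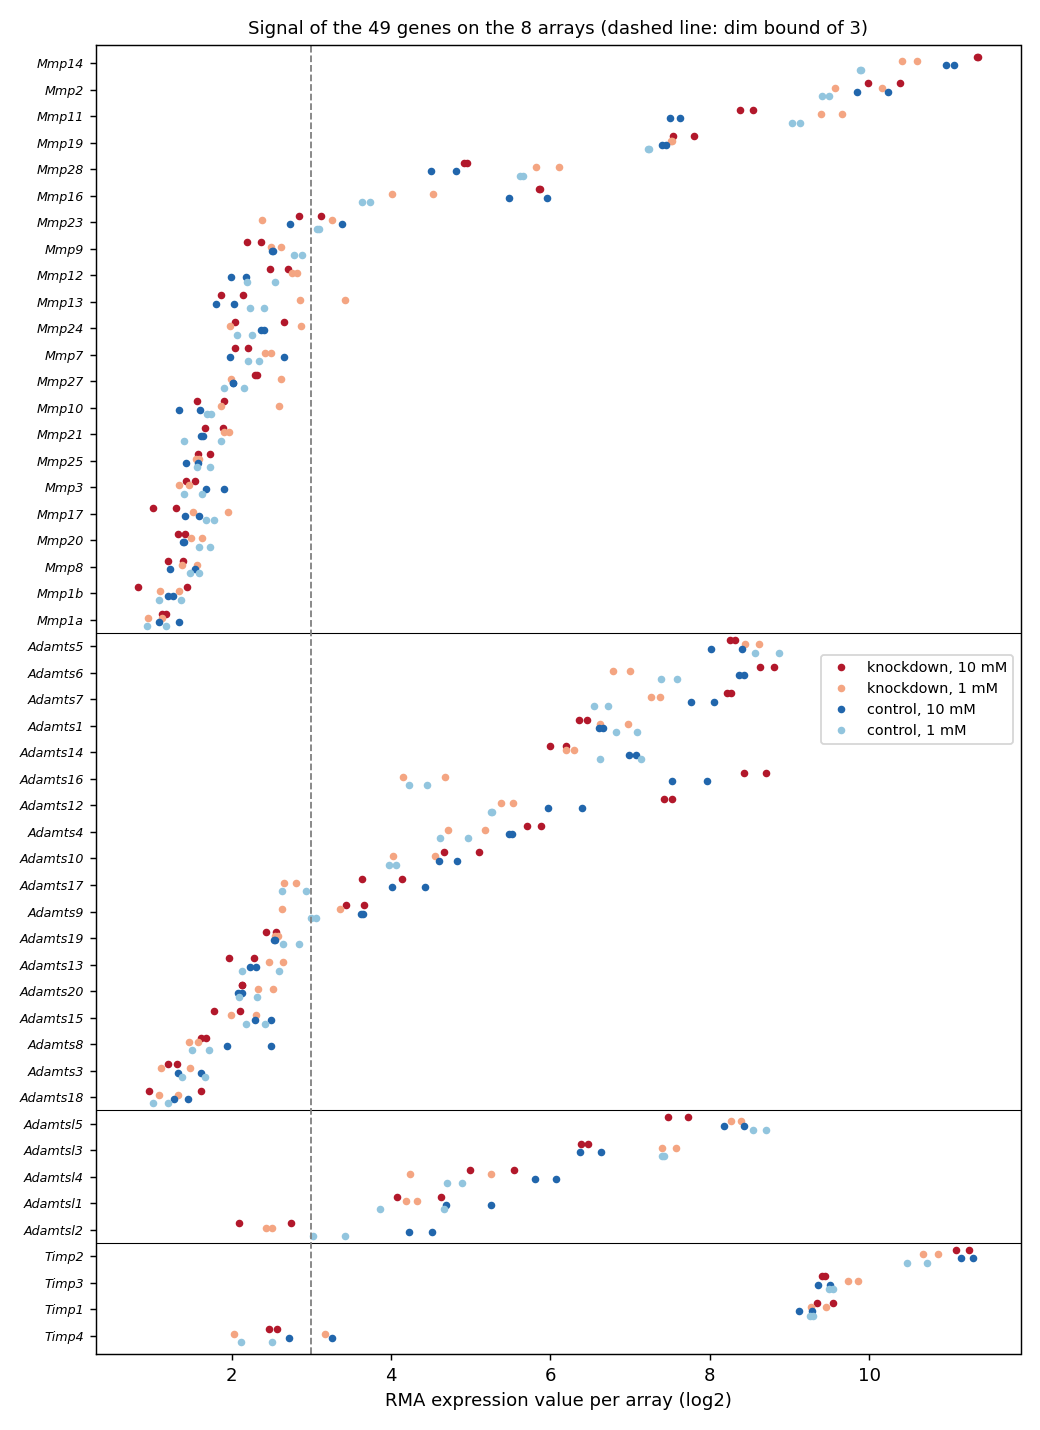
Signal of each of the 49 genes on each of the 8 arrays, in deposited log2 expression values, by subfamily and by mean within it. Each point is 1 array, colours give the 4 groups, and the dashed line marks the bound of 3 below which a gene's mean was called dim; 24 genes have means to its left and 25 to its right.

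Changes were tested with limma on all 13308 genes whose mean reached 2.30, the 40th percentile of all genes, and a gene was called at a Benjamini-Hochberg adjusted p under 0.05 over those 13308 genes. Of the 49 genes, 33 passed this filter and 16 did not; 8 of the 33 were dim. The other 16, which include Adamts15 and 8 of the 10 genes of the chromosome 9 run, had no test, and their single values lay between 0.829 and 2.65. The counts below cover the 33 tested genes and not the whole family. With 2 arrays per group, a change in 1 cell type had a median standard error (SE) of 0.173 over all tested genes, which is a 95% interval of ± 0.406 on the log2 scale before any adjustment for the number of genes. Of the 33 genes, 22 were called in at least 1 of the 7 comparisons and 11 in none. The matching share over all tested genes was not counted, so these 2 counts are not a trait of the family. In the averaged glucose comparison alone, 39.1% of all tested genes were called.

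The samples were first checked against their labels. Smarcd3 was measured only by a probe set shared with Chpf2. That shared probe set read 3.90 and 4.49 in knockdown against 6.27 and 6.09 in control myotubes at 10 mM, and 3.01 and 2.77 in knockdown against 5.62 and 5.40 in control myotubes at 1 mM. All 4 knockdown arrays lay below all 4 control arrays, with log2 changes of -1.98 ± 0.22 at 10 mM (adjusted p = 0.0222) and -2.62 ± 0.22 at 1 mM (adjusted p = 0.00421) when every probe set was fitted as its own row. The means of all 8 myotube markers over the 8 arrays were above the dim bound, and the mean level of the list was 9.05 in knockdown and 9.93 in control myotubes at 10 mM, and 7.86 in knockdown and 9.09 in control myotubes at 1 mM. The labelled cell type was thus present in all groups by its markers, with lower levels in knockdown cells, where 8 of 8 markers were called lower in the average over glucose. Of 7 macrophage markers, 5 were dim (Ptprc, Adgre1, Csf1r, Itgam and Lyz2), as were 4 of 5 endothelial markers.

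The question of the glucose comparison was which transcripts differed between myotubes kept at 10 mM and at 1 mM glucose, in knockdown and in control cells. In the family, 11 of the 33 tested genes were called in the same direction in both cell types, or 33.3%, against 2332 of all 13308 tested genes, or 17.5%. Adamts16, Adamts12, Adamts6, Adamts7, Adamts17, Adamts4, Mmp16 and Mmp14 rose at 10 mM in both, and Mmp11, Mmp28 and Adamtsl3 fell in both. The steepest of these was Adamts16, with a log2 change of 4.16 ± 0.23 in knockdown and 3.40 ± 0.23 in control myotubes. In knockdown myotubes 8 of the 33 genes rose and 5 fell, against 14.5% of all tested genes called higher and 10.6% called lower. In control myotubes 11 of the 33 rose and 3 fell, against 13.2% called higher and 12.1% called lower among all tested genes. The size of the change had a median over the 33 genes of 0.436 in knockdown and 0.633 in control myotubes, set beside 0.314 and 0.324 over all tested genes. The glucose changes in knockdown and in control myotubes come from different arrays. Their calls are not independent, because 1 fit over all 8 arrays gave both the same estimate of spread for each gene. With the 2 cell types averaged, 13 of the 33 genes were called higher and 8 lower, against 21.3% and 17.8% of all tested genes. The genes called lower in knockdown myotubes and in the average include Mmp13, which passed the filter only through the knockdown group at 1 mM. Of 8 fibroblast and smooth muscle markers, 6 were called higher with glucose in each cell type, and 1, Lum, was dim. Their mean level was 8.45 at 10 mM and 7.26 at 1 mM in knockdown, and 8.02 at 10 mM and 6.88 at 1 mM in control myotubes. Of the 8 myotube markers, 8 in knockdown and 5 in control myotubes were also called higher with glucose. The mean of the whole list in each group lay between 2.66 and 2.96 for the 7 macrophage markers and between 2.30 and 2.46 for the 5 endothelial markers. Means of single markers over the 8 arrays ran from 1.70 to 5.29 and from 2.03 to 3.05. Of the macrophage markers 2, Cd68 and Cd14, were not dim, and of the endothelial markers 1, Cdh5. Of 3 macrophage markers that were tested, Ptprc and Cd68 were called lower with glucose in knockdown myotubes and none was called in control myotubes. Of 6 markers of undifferentiated myoblasts, 3 were called higher and 1 lower with glucose in each cell type, and the proliferation marker Mki67 rose by 2.71 in knockdown and 2.52 in control myotubes. The part of the marker shifts in the family's changes was not tested. In RNA from whole cultures, fewer cells of a type and less RNA per cell cannot be told apart.

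**Figure D2:**
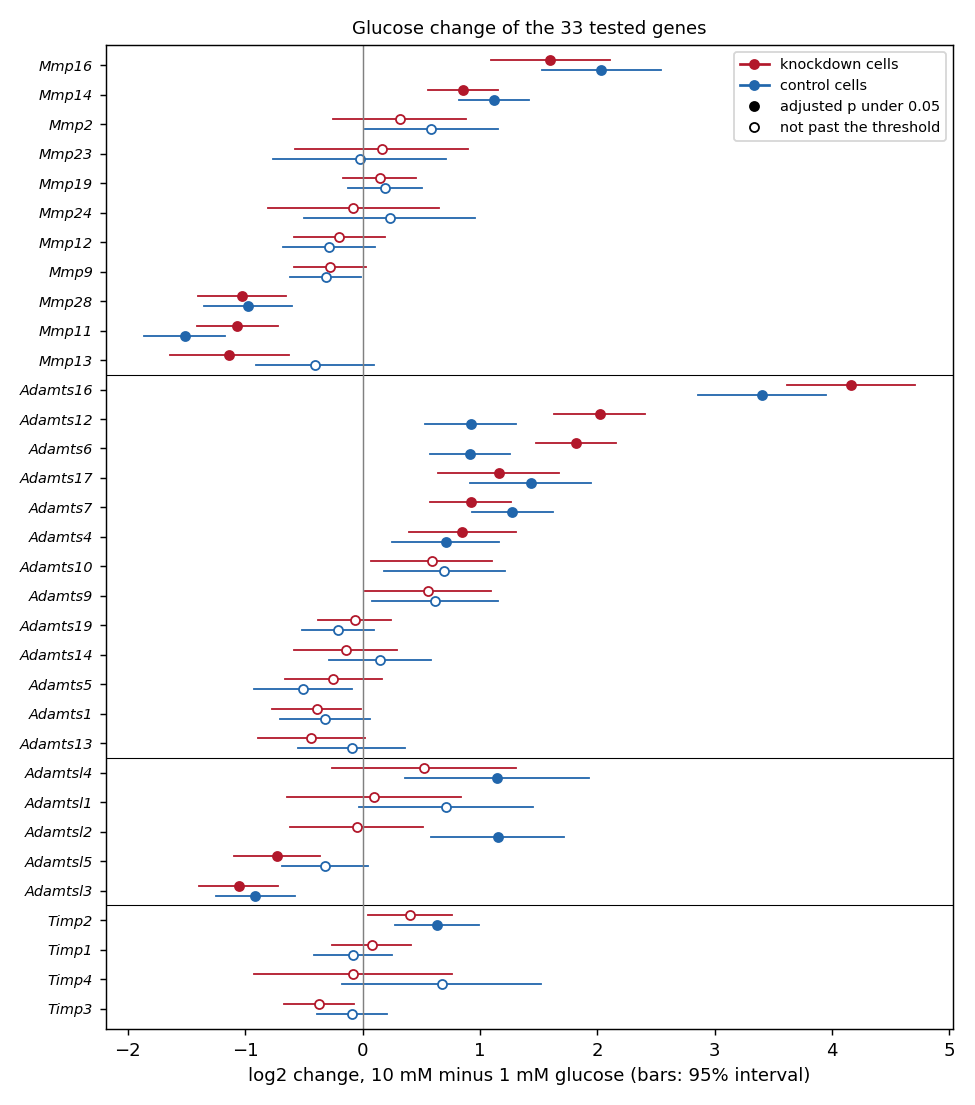
Log2 change at 10 mM over 1 mM glucose of the tested family genes in knockdown myotubes and in control myotubes, with 95% intervals from the limma fit. Adamts16, Adamts12, Adamts6, Mmp16, Adamts17, Adamts7, Mmp14 and Adamts4 lie above 0 in both cell types and Mmp11, Mmp28 and Adamtsl3 below 0 in both.

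Among the membrane-type MMPs that the rule found, which do not include Mmp15, both genes with signal above the dim bound rose at 10 mM glucose. Mmp14 encodes the enzyme that cleaves fibrillar collagen at the cell surface and activates the Mmp2 precursor. It read 11.36 and 11.37 at 10 mM against 10.41 and 10.60 at 1 mM in knockdown myotubes, and 10.96 and 11.06 at 10 mM against 9.88 and 9.90 at 1 mM in control myotubes. In each cell type both 10 mM arrays were above both 1 mM arrays, and the knockdown arrays lay above the control arrays at the same glucose. The log2 change with glucose was 0.86 ± 0.13 in knockdown (SE; adjusted p = 0.00279) and 1.12 ± 0.13 in control myotubes (adjusted p = 0.00113). Mmp16, a second membrane-type enzyme, read 5.85 and 5.87 at 10 mM against 4.01 and 4.52 at 1 mM in knockdown myotubes, and 5.95 and 5.48 against 3.63 and 3.74 in control myotubes. Its 4 arrays at 10 mM all lay above its 4 arrays at 1 mM. The change was 1.60 ± 0.22 in knockdown (adjusted p = 0.00197) and 2.04 ± 0.22 in control myotubes (adjusted p = 0.00089). The glycosylphosphatidylinositol-anchored Mmp17 and Mmp25 were dim and not tested, and the membrane-type Mmp24 was dim. Mmp24 was also covered by a probe set shared with BC029722, which rose in knockdown myotubes by 0.78 ± 0.18 (adjusted p = 0.0202) and had a change of 0.42 in control myotubes (adjusted p = 0.135). Which of its 2 genes carried that signal was not tested.

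Mmp11 and Mmp28 moved the other way. Mmp11, or stromelysin-3, is an MMP that leaves the cell already activated by furin. It read 8.38 and 8.55 at 10 mM against 9.40 and 9.66 at 1 mM in knockdown myotubes, and 7.62 and 7.503 against 9.13 and 9.03 in control myotubes. Every 10 mM array lay below every 1 mM array, and at each glucose concentration the knockdown arrays lay above the control arrays. Mmp11 changed by -1.07 ± 0.15 in knockdown (adjusted p = 0.0021) and by -1.52 ± 0.15 in control myotubes (adjusted p = 0.000637). A second probe set for Mmp11 gave -0.96 ± 0.22 (adjusted p = 0.0178) and -1.35 ± 0.22 (adjusted p = 0.0051) in the same comparisons. Mmp28, or epilysin, read 4.95 and 4.92 at 10 mM against 6.11 and 5.82 at 1 mM in knockdown myotubes, and 4.51 and 4.82 against 5.62 and 5.65 in control myotubes. Here too the glucose groups did not overlap, with changes of -1.03 ± 0.16 in knockdown (adjusted p = 0.0034) and -0.97 ± 0.16 in control myotubes (adjusted p = 0.0047). The calls of Mmp14, Mmp16, Mmp11 and Mmp28 held in all 8 fits that each left out 1 array.

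The gelatinases and collagenase-3 were called in fewer of the glucose comparisons. Mmp2, or gelatinase A, read 9.98 and 10.39 at 10 mM against 9.58 and 10.16 at 1 mM in knockdown myotubes, and 9.84 and 10.24 against 9.41 and 9.501 in control myotubes. The knockdown groups overlapped and the control groups did not. Its changes of 0.32 ± 0.24 in knockdown (adjusted p = 0.391) and 0.59 ± 0.24 in control myotubes (adjusted p = 0.122) were not called. Their 95% intervals of -0.25 to 0.89 and 0.02 to 1.15 leave room for a change as large as that of Mmp14. Mmp9, or gelatinase B, was dim and read 2.19 and 2.36 at 10 mM against 2.49 and 2.62 at 1 mM in knockdown myotubes, and 2.52 and 2.51 against 2.78 and 2.88 in control myotubes. It was called lower only in the average over cell types, with a change of -0.30 ± 0.09 (adjusted p = 0.038), and that call was lost in each of the 8 fits without 1 array, with adjusted p up to 0.126. Mmp13, or collagenase-3, was dim as well, with 2.14 and 1.87 at 10 mM against 2.85 and 3.42 at 1 mM in knockdown myotubes, and 1.81 and 2.03 against 2.23 and 2.41 in control myotubes. The 2 knockdown arrays at 1 mM were its highest values. Its change was -1.13 ± 0.21 in knockdown (adjusted p = 0.00809, but 0.0552 without replicate 2 of the knockdown group at 10 mM) and -0.40 ± 0.21 in control myotubes (adjusted p = 0.216). The average over cell types was -0.77 ± 0.15 (adjusted p = 0.00616), and between -0.91 and -0.62 in the 8 fits without 1 array. The mean of Mmp13 over the 8 arrays, 2.35, was just above the filter of 2.30. Its group means were 2.00 at 10 mM and 3.14 at 1 mM in knockdown, and 1.92 and 2.32 in control myotubes. Mmp13 was thus tested only through the group where it was highest. The fits without 1 array kept the filter set on all 8, so they do not probe this. The secreted Mmp19 was called in no comparison and read 7.54 and 7.80 at 10 mM against 7.52 and 7.52 at 1 mM in knockdown myotubes, and 7.40 and 7.45 against 7.23 and 7.24 in control myotubes.

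The ADAMTS proteases that were called in either cell type all rose with glucose: 6 of 13 tested genes in knockdown and the same 6 in control myotubes, with none called lower. Of all tested genes, 14.5% were called higher and 10.6% lower in knockdown, and 13.2% and 12.1% in control myotubes. With 13 genes and these shares, the absence of a lower call is not a trait of the ADAMTS genes. Adamts16, for which fibronectin is a known substrate, read 8.71 and 8.43 at 10 mM against 4.14 and 4.67 at 1 mM in knockdown myotubes, and 7.97 and 7.52 against 4.23 and 4.45 in control myotubes. All 4 arrays at 10 mM lay far above all 4 at 1 mM. These are 17.9-fold (adjusted p = 9.84e-05) and 10.6-fold (adjusted p = 0.000171) increases. The difference between these responses was 0.76 ± 0.33 on the log2 scale, with a 95% interval of -0.01 to 1.53 and an adjusted p of 0.639.

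Adamts7 and Adamts12 form a pair of related enzymes that cut cartilage oligomeric matrix protein. Adamts12 read 7.52 and 7.43 at 10 mM against 5.37 and 5.53 at 1 mM in knockdown myotubes, and 6.39 and 5.97 against 5.27 and 5.26 in control myotubes. The knockdown arrays at 10 mM stood above all others, and the control arrays at 10 mM stood above all arrays at 1 mM. The change was 2.02 ± 0.17 in knockdown (adjusted p = 0.000312) and 0.92 ± 0.17 in control myotubes (adjusted p = 0.00704). Adamts7 read 8.22 and 8.26 at 10 mM against 7.37 and 7.26 at 1 mM in knockdown myotubes, and 7.77 and 8.05 against 6.72 and 6.54 in control myotubes. In Adamts7 the knockdown arrays lay above the control arrays at both concentrations. Its glucose changes were 0.92 ± 0.15 in knockdown (adjusted p = 0.00398) and 1.27 ± 0.15 in control myotubes (adjusted p = 0.00123).

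Of the ADAMTS genes tied to fibrillin microfibrils, Adamts6 and Adamts17 were called in both cell types and Adamts10 in the average alone. Adamts6 read 8.62 and 8.80 at 10 mM against 7.004 and 6.79 at 1 mM in knockdown myotubes, and 8.37 and 8.43 against 7.59 and 7.39 in control myotubes. Its knockdown arrays were the highest of all at 10 mM and the lowest of all at 1 mM. The changes were 1.82 ± 0.15 (adjusted p = 0.000284) and 0.91 ± 0.15 (adjusted p = 0.00436) in knockdown and control myotubes. Adamts17 read 3.64 and 4.13 at 10 mM against 2.65 and 2.81 at 1 mM in knockdown myotubes, and 4.02 and 4.42 against 2.94 and 2.64 in control myotubes, so that both 1 mM groups lay below the dim bound. It rose by 1.16 ± 0.22 in knockdown (adjusted p = 0.00823, but 0.0502 without replicate 2 of the knockdown group at 10 mM) and by 1.43 ± 0.22 in control myotubes (adjusted p = 0.00381). Adamts10 read 5.10 and 4.66 at 10 mM against 4.55 and 4.03 at 1 mM in knockdown myotubes, and 4.60 and 4.82 against 4.06 and 3.97 in control myotubes. Within each cell type the glucose groups did not overlap, and the averaged change was 0.64 ± 0.15 (adjusted p = 0.0143, but 0.0509 without replicate 2 of the control group at 10 mM).

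**Figure D3:**
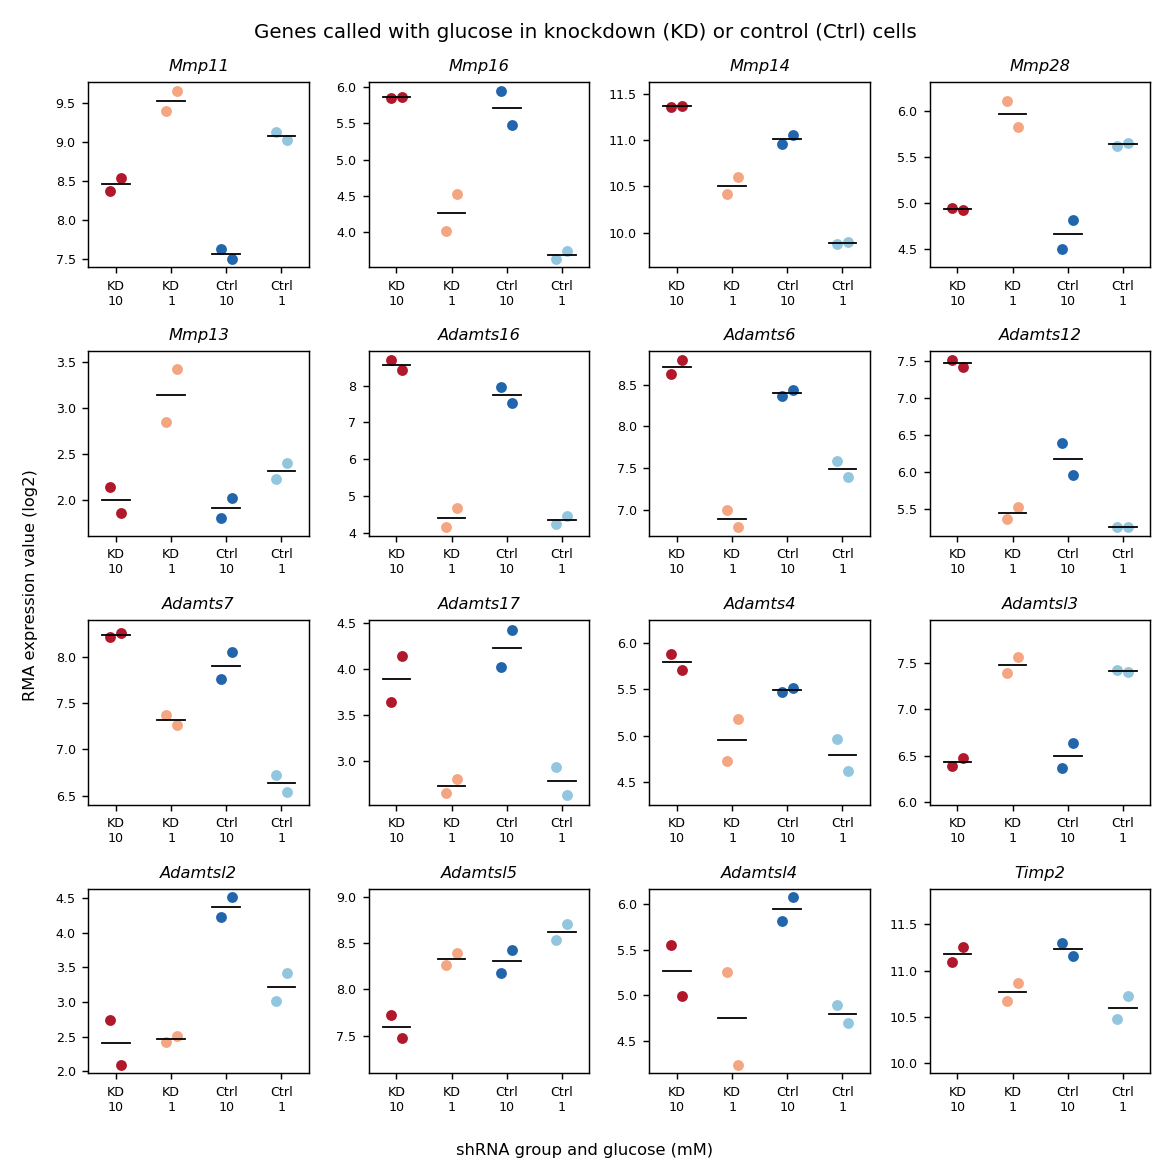
Deposited log2 values on each array of the 16 family genes called with glucose in either cell type, with the groups in the order knockdown at 10 mM, knockdown at 1 mM, control at 10 mM and control at 1 mM; points are arrays, bars are group means, and each panel has its own vertical range. Adamts16, for example, lies between 7.52 and 8.71 at 10 mM and between 4.14 and 4.67 at 1 mM.

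The proteoglycan-cutting enzymes did not move together. Adamts4, an aggrecanase, read 5.89 and 5.71 at 10 mM against 4.72 and 5.18 at 1 mM in knockdown myotubes, and 5.48 and 5.52 against 4.96 and 4.62 in control myotubes. It was higher on each 10 mM array than on any 1 mM array, by 0.85 ± 0.19 in knockdown (adjusted p = 0.0173) and 0.71 ± 0.19 in control myotubes (adjusted p = 0.035). The knockdown call was lost without either 10 mM array or without replicate 1 at 1 mM (adjusted p up to 0.1), and the control call in 5 of 8 fits without 1 array (adjusted p up to 0.168). Adamts5, an aggrecanase and versicanase that has been tied to myoblast fusion in mouse cells, read 8.32 and 8.25 at 10 mM against 8.62 and 8.45 at 1 mM in knockdown myotubes, and 8.01 and 8.40 against 8.57 and 8.86 in control myotubes. Adamts1, which also cuts versican, read 6.36 and 6.46 at 10 mM against 6.97 and 6.63 at 1 mM in knockdown myotubes, and 6.66 and 6.61 against 7.08 and 6.83 in control myotubes. Both were called lower only in the average over cell types, Adamts5 with a change of -0.38 ± 0.13 (adjusted p = 0.0483) and Adamts1 with one of -0.35 ± 0.12 (adjusted p = 0.0441). Each of these 2 calls was lost in 6 of the 8 fits without 1 array, with adjusted p up to 0.138 for Adamts5 and up to 0.127 for Adamts1. Adamts9, another versicanase, read 3.43 and 3.67 at 10 mM against 3.35 and 2.63 at 1 mM in knockdown myotubes, and 3.65 and 3.63 against 3.05 and 2.99 in control myotubes. Its 1 mM arrays were the lower ones in both cell types, with an averaged change of 0.59 ± 0.16 (adjusted p = 0.0249) that was lost in 5 of 8 fits without 1 array (adjusted p up to 0.0797). Adamts15, also a versicanase of muscle, was dim and not tested, with 2.11 and 1.78 at 10 mM and 2.31 and 1.99 at 1 mM in knockdown and 2.49 and 2.29 and 2.18 and 2.41 in control myotubes.

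Of the 5 ADAMTS-like genes, Adamtsl3 moved alike in both cell types. Adamtsl3, or punctin-2, read 6.38 and 6.47 at 10 mM against 7.40 and 7.57 at 1 mM in knockdown myotubes, and 6.37 and 6.63 against 7.43 and 7.40 in control myotubes. Every 10 mM array lay below every 1 mM array, with changes of -1.06 ± 0.14 in knockdown (adjusted p = 0.00196) and -0.91 ± 0.14 in control myotubes (adjusted p = 0.00404). Adamtsl5, whose protein binds fibrillins, read 7.72 and 7.47 at 10 mM against 8.27 and 8.39 at 1 mM in knockdown myotubes, and 8.18 and 8.43 against 8.54 and 8.71 in control myotubes. It fell by 0.73 ± 0.16 in knockdown myotubes (adjusted p = 0.0134), a call lost without replicate 2 of either knockdown group (adjusted p up to 0.0873). The control change of -0.32 ± 0.16 was not called (adjusted p = 0.183), and the difference between the responses was -0.41 ± 0.22 (adjusted p = 0.704).

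Adamtsl2 and Adamtsl4, both microfibril-binding proteins, were called higher with glucose in control myotubes. Adamtsl2 read 2.74 and 2.09 at 10 mM against 2.43 and 2.502 at 1 mM in knockdown myotubes, and 4.22 and 4.52 against 3.02 and 3.42 in control myotubes. All 4 knockdown arrays lay below the dim bound and below all 4 control arrays. Its change was -0.05 ± 0.24 in knockdown (adjusted p = 0.903) and 1.15 ± 0.24 in control myotubes (adjusted p = 0.0128), and the control call was lost without replicate 2 at 10 mM or replicate 1 at 1 mM of the control groups (adjusted p up to 0.0785). Adamtsl4 read 5.55 and 4.995 at 10 mM against 5.26 and 4.24 at 1 mM in knockdown myotubes, and 5.81 and 6.07 against 4.89 and 4.70 in control myotubes. The knockdown groups overlapped. The change was 0.52 ± 0.33 in knockdown (adjusted p = 0.303) and 1.15 ± 0.33 in control myotubes (adjusted p = 0.043), and the control call was lost in 6 of 8 fits without 1 array (adjusted p up to 0.179). Adamtsl1 was called in no comparison.

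Of the 4 inhibitors, Timp2 was called with glucose and Timp1, Timp3 and Timp4 were not. Timp2, which inhibits MMPs and also joins Mmp14 in the complex that activates Mmp2, read 11.09 and 11.26 at 10 mM against 10.67 and 10.87 at 1 mM in knockdown myotubes, and 11.30 and 11.16 against 10.47 and 10.72 in control myotubes. All 10 mM arrays were above all 1 mM arrays. The change was 0.41 ± 0.15 in knockdown (adjusted p = 0.0966) and 0.63 ± 0.15 in control myotubes (adjusted p = 0.0219), where the call was lost without either 10 mM array or without replicate 1 at 1 mM (adjusted p up to 0.113). In the average over cell types Timp2 rose by 0.52 ± 0.11 (adjusted p = 0.00774), a call kept in all 8 fits without 1 array. Timp1, a weak inhibitor of membrane-type MMPs, read 9.55 and 9.34 at 10 mM against 9.27 and 9.46 at 1 mM in knockdown myotubes, and 9.12 and 9.28 against 9.26 and 9.30 in control myotubes. The glucose groups overlapped in both cell types, and the averaged change had a 95% interval of -0.24 to 0.24. Timp3, the matrix-bound TIMP that also blocks ADAMTS enzymes, read 9.44 and 9.40 at 10 mM against 9.86 and 9.73 at 1 mM in knockdown myotubes, and 9.35 and 9.51 against 9.49 and 9.55 in control myotubes. Its change of -0.37 ± 0.13 in knockdown myotubes missed the threshold (adjusted p = 0.0716, but 0.032 with each array centred on its median), and that in control myotubes was -0.09 ± 0.13 (adjusted p = 0.641). Timp4 was dim, with single values between 2.03 and 3.26.

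The knockdown comparison asked which transcripts differed between Baf60c knockdown and control myotubes at the same glucose. At 10 mM, 2 of the 33 tested genes were called higher in knockdown myotubes (Adamts12 and Mmp11) and 1 lower (Adamtsl2), against 0.428% and 0.691% of all tested genes. The changes were 1.29 ± 0.17 for Adamts12 (adjusted p = 0.0268), 0.90 ± 0.15 for Mmp11 (adjusted p = 0.0467) and -1.96 ± 0.24 for Adamtsl2 (adjusted p = 0.0242). Each direction was kept when 1 array was left out, and no call was kept in all 8 such fits. Those of Adamts12 and Adamtsl2 were lost in 6 of the 8, without any 1 array other than the 2 of the knockdown group at 1 mM, with adjusted p up to 0.167 and 0.152. That of Mmp11 was lost in all 8 (adjusted p up to 0.248), and its second probe set had a change of 0.82 (adjusted p = 0.158).

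At 1 mM, limma called none of the 33 genes, against 0.233% of all tested genes called higher and 1.25% called lower. Without adjustment, 9 of the 33 had p under 0.05, or 27.3%, against 15.9% of all tested genes. Mmp14 came nearest to the threshold, with a difference of 0.61 ± 0.13 (adjusted p = 0.0736). It was the 1 family gene called (adjusted p = 0.049) when genes with a mean below 3 were left out of the fit and the adjustment. The share of all tested genes called at 1 mM was then 2.42%, against 1.49%. With a mean-dependent prior and robust estimation in limma, 4 of the 33 genes were called at 1 mM and 7 at 10 mM, while the share of all tested genes called was 4.49% at 1 mM and 3.51% at 10 mM, against 1.49% and 1.12% without these options. Adamts7 had 0.69 ± 0.15 (adjusted p = 0.0822) and Adamts6 had -0.59 ± 0.15 (adjusted p = 0.112). The dim Mmp13, counted among the 9, had 0.82 ± 0.21 (adjusted p = 0.132). It passed the filter only through its high values in the knockdown group at 1 mM, so this difference carries no weight.

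Averaged over both glucose concentrations, 4 of the 33 genes were called higher in knockdown myotubes and 2 lower, against 1.6% and 2.71% of all tested genes. Mmp11 was higher by 0.67 ± 0.10 (adjusted p = 0.0162), Adamts12 by 0.74 ± 0.12 (adjusted p = 0.0177), Adamts7 by 0.51 ± 0.10 (adjusted p = 0.0423) and Mmp14 by 0.48 ± 0.09 (adjusted p = 0.0291). Adamtsl2 was lower, with a change of -1.36 ± 0.17 (adjusted p = 0.008), and it was the 1 call of the 6 that was kept in all 8 fits without 1 array. Adamts14, a procollagen N-proteinase, read 6.20 and 5.998 in knockdown against 6.98 and 7.07 in control myotubes at 10 mM, and 6.30 and 6.19 against 6.62 and 7.13 at 1 mM. All 4 knockdown arrays lay below all 4 control arrays, with a change of -0.78 ± 0.13 (adjusted p = 0.0221). That call was lost in 7 of the 8 fits without 1 array (adjusted p up to 0.0895), and a second, dim probe set for Adamts14 gave -0.17 (adjusted p = 0.538). The calls of Mmp11 and Adamts12 were lost in 5 of the 8 fits (adjusted p up to 0.07 and 0.0766), that of Mmp14 in 7 (up to 0.109) and that of Adamts7 in all 8 (up to 0.134). The myotube markers were lower in the same knockdown arrays, as given above. Of 8 fibroblast and smooth muscle markers, 3 (Cnn1, Tagln and Postn) were called higher and 1 lower in the average over glucose. At 10 mM the same 3 were called higher and 0 lower, and at 1 mM 0 of the 8 were called. The part of these markers in the family's results was not tested.

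**Figure D4:**
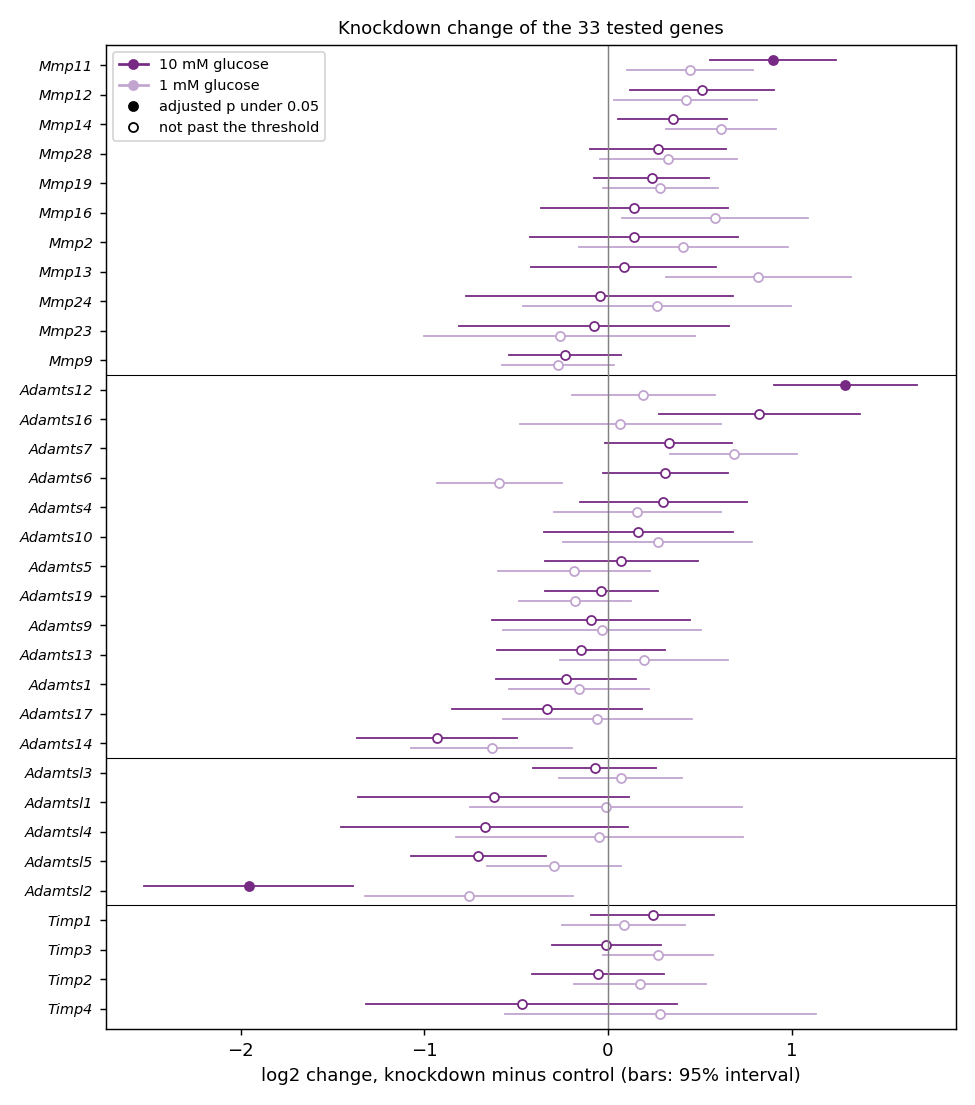
Log2 difference of knockdown from control myotubes for the tested family genes at 10 mM and at 1 mM glucose, with 95% intervals from the limma fit. The intervals of Adamts12 and Mmp11 at 10 mM lie above 0 and that of Adamtsl2 lies below 0, and these 3 differences were called. The intervals are not adjusted for the number of genes. Those of Adamts14, Adamtsl5, Adamts16, Mmp12 and Mmp14 at 10 mM, and several at 1 mM, also leave out 0 without a call.

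The glucose response was not shown to differ between knockdown and control myotubes for any of the genes. The interaction, which is the glucose change in knockdown minus that in control myotubes, was called by limma for none of the 33 genes and for none of the 13308 genes (0.0% higher and 0.0% lower). It was called for none of the 33 in any other setting, and for 1 of the 13308 with the mean-dependent robust prior. Without adjustment, 4 of the 33 genes, or 12.1%, and 1049 of all genes, or 7.88%, had p under 0.05. Among the 4, the change with glucose was larger in knockdown myotubes for Adamts12, by 1.10 ± 0.23 (adjusted p = 0.417), and for Adamts6, by 0.90 ± 0.21 (adjusted p = 0.417). It was lower for Adamtsl2, with a difference of -1.20 ± 0.34 (adjusted p = 0.518), and for Mmp13, with a difference of -0.73 ± 0.30 (adjusted p = 0.617). The dim Mmp13 passed the filter only through the knockdown group at 1 mM, which enters this difference, so its value carries no weight. The median SE of the interaction was 0.245, which is a 95% interval of ± 0.574 before any adjustment for the number of genes. Differences larger than this, such as those of Adamts12 and Adamtsl2, were not called.

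Genes around the family were read from lists of activators, other inhibitors, related proteases and substrates. Over all tested genes, glucose had 14.5% called higher and 10.6% lower in knockdown, and 13.2% and 12.1% in control myotubes. The counts of each list stand beside these shares, and no list was tested as a set. Of 7 tested genes of the plasminogen system and other activating proteases, 3 rose and 1 fell with glucose in knockdown and 2 rose and 2 fell in control myotubes. Plat and Plau, the tissue and urokinase plasminogen activators, rose by 1.31 and 1.26 in knockdown and by 1.36 and 1.25 in control myotubes. Plaur, the receptor of urokinase, fell by 1.91 in knockdown and by 2.01 in control myotubes (adjusted p = 0.000584 and 0.000553). Of 7 other inhibitors and anchors of metalloproteases, 3 rose and 1 fell in knockdown and 2 rose and 0 fell in control myotubes. Among them, Reck, a membrane-anchored inhibitor of MMPs, rose by 1.57 ± 0.13 in knockdown (adjusted p = 0.000337) and by 0.68 ± 0.13 in control myotubes (adjusted p = 0.00948). Of 8 ADAM genes, membrane-bound relatives of the family, Adam19 alone was called, with changes of 0.59 in knockdown and 0.65 in control myotubes (adjusted p = 0.0415 and 0.0288). With knockdown at 10 mM, Adam12, which is made by fusing myoblasts, was higher by 1.20 ± 0.15 (adjusted p = 0.0242). Of 18 other matrix proteases, 4 rose and 1 fell in knockdown and 4 rose and 3 fell in control myotubes, with Bmp1, the procollagen C-proteinase, up by 0.88 in knockdown and 0.95 in control myotubes (adjusted p = 0.00195 and 0.00162).

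Lists of substrates of these enzymes were read beside the same shares of all tested genes. Of 17 tested collagen genes, 11 rose and 0 fell with glucose in knockdown and 8 rose and 1 fell in control myotubes, with medians of 0.632 and 0.591 set beside 0.027 and -0.007 over all tested genes. Col12a1 and Col8a1 rose by 2.00 and 1.94 in knockdown and by 1.496 and 1.84 in control myotubes (adjusted p between 0.00017 and 0.0005). Of 11 proteoglycans and other ADAMTS substrates, 5 rose and 1 fell in each cell type, and Thbs1, thrombospondin-1, rose by 2.74 ± 0.13 in knockdown (adjusted p = 7.14e-05) and by 1.67 ± 0.13 in control myotubes (adjusted p = 0.000301). Of 14 fibrillin, elastin and microfibril genes, 7 rose and 1 fell in knockdown and 6 rose and 1 fell in control myotubes, with Loxl1, a matrix crosslinking enzyme, up by 1.38 in knockdown and 1.39 in control myotubes. Of 16 genes of the basement membrane and adhesive glycoproteins, 3 rose and 4 fell in knockdown and 3 rose and 3 fell in control myotubes. Nid2 rose by 1.99 and Nid1 fell by 1.08 in knockdown myotubes, and Nid2 rose by 1.25 and Nid1 fell by 1.27 in control myotubes, although both encode nidogens. With knockdown, Lama2, the laminin chain of the muscle basement membrane, was lower, with changes of -0.93 ± 0.13 at 10 mM (adjusted p = 0.0318) and -1.17 ± 0.13 at 1 mM (adjusted p = 0.00787).

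The AP-1 and ETS factors are known regulators of MMP promoters. Of 13 tested, 3 rose and 2 fell with glucose in knockdown and 5 rose and 3 fell in control myotubes. The shares of all tested genes are those given for the other lists. Atf3 fell, with changes of -3.14 ± 0.21 in knockdown (adjusted p = 0.000167) and -3.495 ± 0.21 in control myotubes (adjusted p = 0.000125), and Fosl2 rose by 1.23 and 0.68 (adjusted p = 0.000552 and 0.00614). Whether these factors act on the family here was not tested.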

How the data were processed

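RNA of 8 cultures of C2C12 myotubes was measured on 8 arrays, 2 per group. The deposited table holds log2 expression values of 41345 probe sets, which the authors made with RMA and affy, per the submitters' processing notes; versions and the genome build are not given in the sources used here. Because RMA equalizes the arrays' distributions and compresses low signals, changes of dim genes may be understated and a change of every transcript at once would be hidden. No further normalization was applied: array medians of the tested genes lay between 5.89 and 6.02.

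Genes were named from the platform annotation, in which 23521 probe sets had 1 gene, 1814 several and 16010 none. A gene with several probe sets (1082 of 22180 genes) was represented by the one with the highest mean. Genes with a mean below the 40th percentile, 2.30, were left out, which left 13308. The limma package, version 3.58.1 in R 4.3.3 (lmFit and eBayes), fitted 1 mean per group over all 8 arrays, with 4 residual and 3.36 prior degrees of freedom and Benjamini-Hochberg adjustment over the 13308 genes. All tests were two-sided, and errors of changes are standard errors. The pipeline was tested on simulated data. The series calls its replicates biological, without saying what separated them, and the number of arrays limits the precision. Within groups, arrays correlated at 0.987 to 0.990 across genes, and between groups at 0.939 to 0.984.

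The members and the lists of other genes were chosen with earlier results of these data known. Values on every array are given for genes called in any comparison, for the 8 genes with the highest mean and for 12 fixed genes of interest, and in the other lists up to 3 called genes with the smallest p could be named. The alternatives were arrays centred on their median, a filter at a mean of 3, no filter, the mean of all probe sets of a gene, a mean-dependent robust prior, the replicate number as a block and each array left out, and, added after the data were seen, a fit of every probe set as its own row. A planned search of the proteins for active-site motifs was not run, since no protein sequences were used here.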

Additional observations from a re-analysis of the deposited data

How the results depend on the processing

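Of 57 changes of family genes that were called in the 7 comparisons, 33 were called under each of 14 alternative settings, 23 lost the call in at least 1, and 0 changed direction. The averaged glucose change of Mmp13 was called wherever it was tested, but the filter at a mean of 3 left that gene out. It passed the main filter only through the knockdown group at 1 mM. At 1 mM glucose the count of genes called with knockdown was 0, and it was 1 with the filter at a mean of 3 (Mmp14) and 4 with the mean-dependent robust prior (Adamts6, Adamts7, Mmp11 and Mmp14). At 10 mM it was 3, and 7 with that prior, which added Adamts14, Adamts16, Adamtsl5 and Mmp14. That prior also moved the share of all tested genes called to 4.49% at 1 mM and 3.51% at 10 mM, against 1.49% and 1.12%. The filter at a mean of 3 moved the share at 1 mM to 2.42%. The filter at a mean of 3 tested fewer genes and also refitted the spread. The cause of the changed counts was not tested for this filter or for the prior. When each array was left out in turn, the counts ranged from 9 to 15 for glucose in knockdown (13 with all arrays), 10 to 16 for glucose in control (14), 15 to 19 for glucose averaged (21), 0 to 2 for knockdown at 10 mM (3), 1 to 4 for knockdown averaged (6), 0 to 0 for knockdown at 1 mM (0) and 0 to 0 for the interaction (0). These fits have fewer residual degrees of freedom, and a group left with 1 array is assumed to vary like the others. Shares of all tested genes called are not given here for these fits or for the replicate block below, so those counts describe the family alone. With no filter, 22180 genes were adjusted for and all 49 family genes were tested. The counts were 17 for glucose averaged, 4 for knockdown averaged and 2 for knockdown at 10 mM. Of all genes, 21.5%, 1.73% and 0.311% were called in these comparisons, against 39.1%, 4.31% and 1.12% with the filter. Centring the arrays changed the glucose counts to 14 and 13 in knockdown and control myotubes and called Timp3 lower in knockdown (adjusted p = 0.032). The share of all tested genes called was then 25.8% in each, against 25.1% and 25.3%. Replicate numbers are shared between groups, but same-numbered arrays did not deviate together: over 6 pairs of groups the correlation of deviations ran from -0.0385 to 0.108. With the replicate number as a block, 13 genes were called with glucose in knockdown, 14 in control, 20 averaged, 2 with knockdown at 10 mM, 5 averaged, and 0 at 1 mM and for the interaction; the block called Mmp2 higher with glucose in control myotubes (adjusted p = 0.0424). With 2 arrays per group, small changes and differences between responses are hard to see, and dim genes carry little signal over background.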
